A study of Mus musculus with 6 samples.

Results

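The platelet-derived growth factor (PDGF) genes of the mouse comprise 4 ligand genes, Pdgfa, Pdgfb, Pdgfc and Pdgfd, and 2 receptor genes, Pdgfra and Pdgfrb. They were taken as every probe set whose single gene symbol was one of these names, which gave 14 probe sets for 6 genes among 34945 probe sets for 18193 genes. Expression was measured on 1-colour Affymetrix Mouse Genome 430 2.0 arrays in 6 libraries of sorted cells from the myenteric plexus of the mouse colon, the nerve network between the muscle layers. All mice were of the strain labelled Mapttm1(EGFP)Klt/J, in which green fluorescent protein is expressed from Mapt, the gene of the neuronal microtubule protein tau, and all had a fluorescent cholera toxin B subunit injected into the celiac ganglion 3 to 4 days before death. The libraries are 3 labelled EGFP-positive (Mapt-EGFP+ colonic neurons) and 3 labelled EGFP-negative (Mapt-EGFP- myenteric cells). Each replicate pooled cells of 2, 4 or 6 mice. The age, the sex and the number of modified Mapt copies per mouse are not given in the sources used here, nor is the number of mice behind a given library.

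PDGF ligands are secreted dimers of A, B, C or D chains. PDGF-A and PDGF-B chains are cut inside the cell by furin-like proteases, whereas PDGF-C and PDGF-D are released with an inhibitory CUB domain that tissue-type plasminogen activator and urokinase remove outside it. The receptors are tyrosine kinases: PDGFRA binds the A, B and C chains, and PDGFRB binds mainly B and D. In the gut wall PDGFRA marks fibroblast-like cells that lie close to nerve endings and smooth muscle, and PDGFRB marks pericytes and other mural cells of blood vessels.

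Values are deposited log2 expression values, listed by replicate number from 1 to 3. Probe sets for TrpnX, a bacterial transcript that serves as a blank, read 1.00 to 1.48. Mapt, the gene that carries the EGFP, was at 1.43, 1.32 and 5.55 in the EGFP-positive-labelled libraries and 1.44, 1.64 and 1.38 in the EGFP-negative-labelled ones. It was therefore above the blank level in 1 of the 3 libraries labelled as neurons. How its probe set reads the modified copy is not known here, so a low Mapt value alone cannot check a label. The mean of 15 neuronal markers was also highest in EGFP-positive replicate 3, at 3.10, 3.02 and 6.38 against 3.21, 3.37 and 3.62. By these markers EGFP-positive replicates 1 and 2 went against their label, so groups are named below by label alone. EGFP-negative replicate 1 stood apart, with 6182 probe sets above a log2 value of 6 where the other 5 libraries had 7135 to 7621.

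Pdgfa encodes the PDGF-A chain, which signals through PDGFRA, and it had the largest difference of the 6 genes. Pdgfa read 7.99, 7.74 and 9.24 in the EGFP-positive-labelled libraries and 6.15, 6.72 and 7.46 in the EGFP-negative-labelled ones. These groups did not overlap, and the library labelled EGFP-positive was the higher of each same-numbered pair, by 1.84, 1.03 and 1.77. The means were 8.32 ± 0.80 (SD, n = 3) and 6.78 ± 0.66 (SD, n = 3), a log2 difference of 1.55 (SE 0.52, 95% interval 0.26 to 2.83), or 2.93-fold. It did not pass the threshold of 0.05 among all genes (limma with Benjamini-Hochberg adjusted p = 0.986, unadjusted p = 0.0262). Blocking on the replicate number left the same difference, 1.55, with an SE of 0.22 (limma adjusted p = 0.661, unadjusted p = 0.00244). Groups that did not overlap occurred in 9.11% of all genes, and in 3.07% with the EGFP-positive group higher. Without EGFP-positive replicate 3, the library with the highest mean of neuronal markers, the Pdgfa difference was 1.09. The groups still did not overlap, as in 16.7% of all genes at that setting.

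The second Pdgfa probe set, 1418711_at, had the same separation. It read 7.87, 7.10 and 8.59 against 6.61, 6.48 and 6.90, with a log2 difference of 1.19 (SE 0.39). That probe set did not pass over 45037 probe sets either (limma adjusted p = 0.703), where 6.5% had an unadjusted p under 0.05 and 10.9% had groups that did not overlap. Both Pdgfa probe sets thus placed the 3 libraries labelled EGFP-positive above the other 3.

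The bases before the start site are shown for Pdgfa, whose groups separated, and for Pdgfc, the ligand gene with the smallest difference. Each line gives 250 bases upstream of a RefSeq start on build GRCm38.p6, 5′ to 3′ on the gene's strand, with GC boxes (GGGCGG on either strand) in capitals. The Pdgfa window is chr5:138994945-138995194 on the minus strand, and the Pdgfc window is chr3:81036166-81036415 on the plus strand.
Pdgfa: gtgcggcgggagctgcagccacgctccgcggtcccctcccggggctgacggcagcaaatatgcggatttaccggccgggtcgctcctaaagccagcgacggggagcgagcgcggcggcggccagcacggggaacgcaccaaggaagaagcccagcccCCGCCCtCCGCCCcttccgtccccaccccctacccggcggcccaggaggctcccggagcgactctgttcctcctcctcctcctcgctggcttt
Pdgfc: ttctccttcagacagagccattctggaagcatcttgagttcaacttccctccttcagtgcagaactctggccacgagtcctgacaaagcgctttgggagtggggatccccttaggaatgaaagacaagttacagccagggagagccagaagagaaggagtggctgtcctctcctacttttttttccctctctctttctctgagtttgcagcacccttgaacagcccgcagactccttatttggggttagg
The Pdgfa window held 2 GC boxes, and its GC content was 72.4%. A second Pdgfa start window, chr5:138994282-138994531 on the same strand, held 1 GC box at a GC content of 66.4%. The Pdgfc window held 0 GC boxes at a GC content of 50.8%. Among 32851 RefSeq start windows of this length 32.7% held a GC box, and the median GC content was 52.4%. None of the 3 windows held the TATA box letters TATAAA on either strand, which 12.4% of windows did. These matches describe the letters of the windows, and no binding was measured. Start windows were read for 4 of the 6 genes. The Pdgfd window held 1 TATA box and 0 GC boxes at a GC content of 53.6%. The Pdgfra window held 0 of either at a GC content of 54.4%.

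Pdgfb encodes the PDGF-B chain, which binds both receptors and recruits pericytes to vessels. Pdgfb read 6.25, 5.72 and 7.94 in the EGFP-positive-labelled libraries and 4.39, 5.34 and 5.99 in the EGFP-negative-labelled ones. The groups overlapped through EGFP-positive replicate 2 and EGFP-negative replicate 3, although each same-numbered pair was higher on the EGFP-positive side, by 1.85, 0.38 and 1.95. All 3 pairs were higher in 11.3% of all genes. The log2 difference was 1.39 (SE 0.70, 95% interval -0.34 to 3.13), within the error of the fit (limma adjusted p = 1.00, unadjusted p = 0.0954). With the replicate block its SE was 0.38 (limma adjusted p = 0.661, unadjusted p = 0.0232). Without EGFP-positive replicate 3 the Pdgfb difference was 0.74. The other Pdgfb probe set, 1450413_at, lay between 1.41 and 2.75 in the 6 libraries, near the TrpnX level, with its highest value also in EGFP-positive replicate 3.

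Pdgfc encodes a CUB-domain ligand of PDGFRA, and it varied least of the 6 genes. Pdgfc read 6.51, 6.55 and 7.29 against 6.75, 6.46 and 6.85, so that the groups overlapped and the whole range over the 6 libraries was 0.83. The log2 difference was 0.095 (SE 0.26), and its 95% interval of -0.54 to 0.73 spans 0.687-fold to 1.66-fold (limma adjusted p = 1.00). The sign turned without EGFP-positive replicate 3 (-0.16) and without EGFP-negative replicate 2 (-0.016). The second probe set, 1449351_s_at, gave -0.040 (SE 0.29).

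Pdgfd encodes the CUB-domain ligand of PDGFRB, and its values went with the replicate number rather than with the label. Pdgfd read 3.48, 5.89 and 5.75 in the EGFP-positive-labelled libraries and 3.89, 6.04 and 6.08 in the EGFP-negative-labelled ones. Both replicate 1 libraries were low, and the other 4 libraries lay between 5.75 and 6.08. Within pairs the EGFP-positive library was lower by small amounts, with differences of -0.41, -0.15 and -0.33; all 3 pairs were lower in 18.2% of all genes. The log2 difference was -0.30 with an SE of 0.90 without the block (limma adjusted p = 1.00) and 0.13 with it (limma adjusted p = 0.708), and it turned to 0.053 when arrays were centred on ribosomal protein genes. The other Pdgfd probe sets, 1426319_at and 1446691_at, stayed between 1.24 and 1.91, so 1 of 3 probe sets carried the signal.

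**Figure D1:**
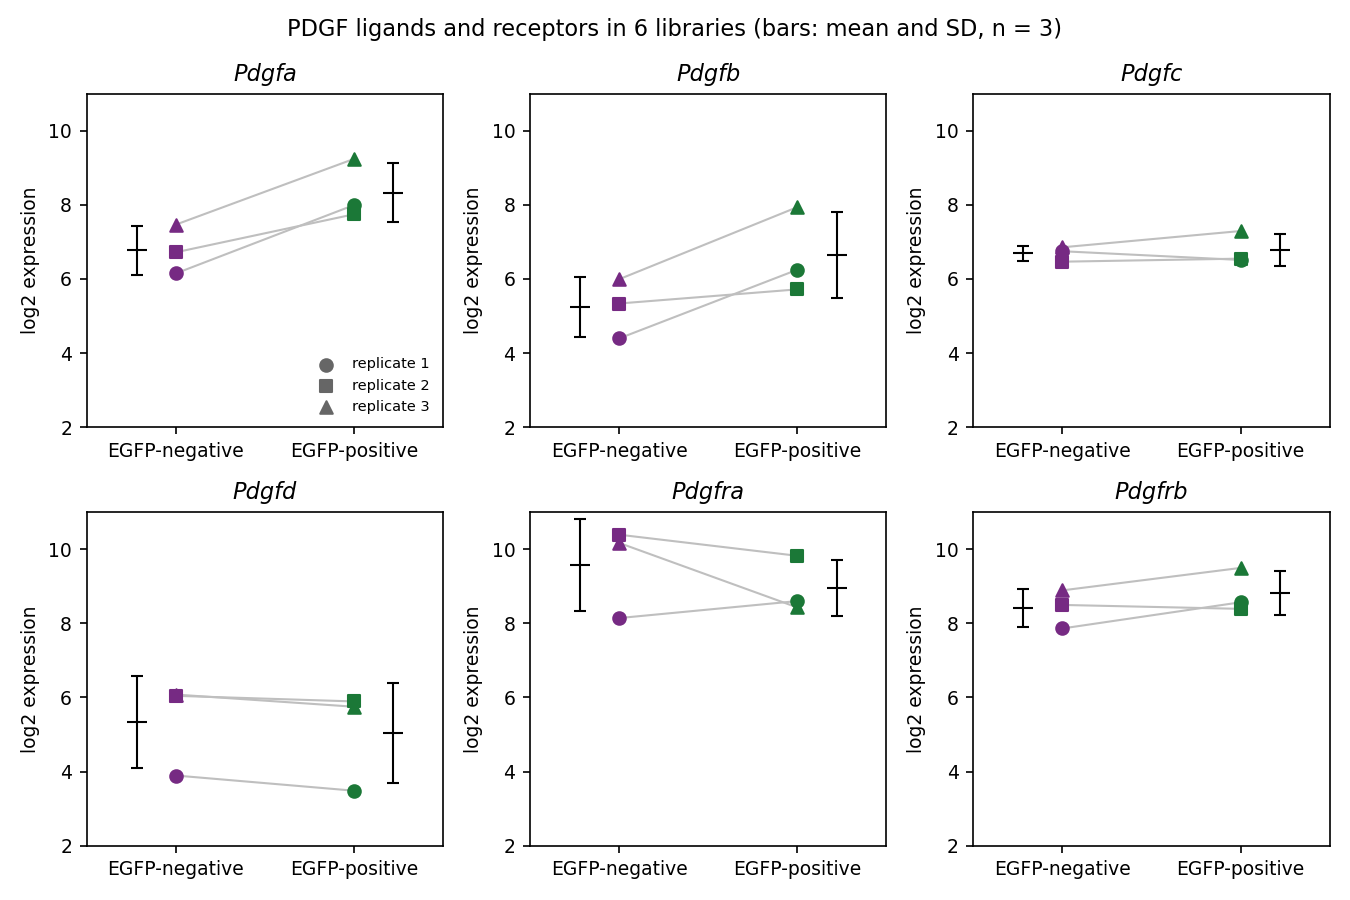
Deposited log2 expression (y axis) of the 6 PDGF genes in the libraries labelled EGFP-negative (purple) and EGFP-positive (green), 1 panel a gene. Symbols mark replicates 1, 2 and 3, grey lines join libraries with the same number, and black bars give mean and SD of 3 libraries. For Pdgfa the lowest green value, 7.74, lies above the highest purple value, 7.46; the other 5 genes overlap between groups.

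Pdgfra encodes the receptor for the A, B and C chains. Pdgfra read 8.60, 9.82 and 8.43 in the EGFP-positive-labelled libraries and 8.14, 10.39 and 10.17 in the EGFP-negative-labelled ones. The lowest value of all was in EGFP-negative replicate 1, and the 2 highest were in the other EGFP-negative libraries, so the groups overlapped. The pairs disagreed in sign, at 0.46, -0.57 and -1.74. The log2 difference was -0.62 (SE 0.72, 95% interval -2.40 to 1.17; limma adjusted p = 1.00). Without EGFP-negative replicate 1 it was -1.33 and the groups no longer overlapped, still with limma adjusted p = 0.699, where 21.9% of genes had groups that did not overlap. The value without EGFP-negative replicate 2 was -0.21 and that without EGFP-negative replicate 3 was -0.32. Without EGFP-positive replicate 3 it was -0.36, and without EGFP-positive replicate 2 it was -1.05. In bulk samples such as these, fewer cells of a type and less RNA per cell cannot be told apart.

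The other Pdgfra probe sets were dimmer, and their groups overlapped too. Probe set 1438946_at read 4.18, 4.97 and 2.64 against 3.44, 6.30 and 6.43, a log2 difference of -1.46 (SE 1.01). It was -2.43 without EGFP-negative replicate 1, where its groups no longer overlapped (limma adjusted p = 0.541), -0.94 without EGFP-negative replicate 3 and -0.81 without EGFP-positive replicate 3. Probe set 1421916_at read 1.34, 2.92 and 1.40 against 1.48, 2.85 and 4.09, where 3 libraries were near the TrpnX level. In both, EGFP-negative replicate 3 was highest and EGFP-positive replicate 3 was low, whereas the brightest probe set was highest in EGFP-negative replicate 2.

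Pdgfrb encodes the receptor that PDGF-B and PDGF-D bind. Pdgfrb read 8.56, 8.39 and 9.49 in the EGFP-positive-labelled libraries and 7.86, 8.49 and 8.89 in the EGFP-negative-labelled ones. EGFP-positive replicate 3 was the highest library and EGFP-negative replicate 1 the lowest, as they were for Pdgfa and Pdgfb. The log2 difference was 0.40 (SE 0.40, 95% interval -0.59 to 1.39; limma adjusted p = 1.00), and it was 0.064 without EGFP-positive replicate 3 and 0.12 without EGFP-negative replicate 1. With array weights it was 0.057. Its second probe set, 1417148_at, read 5.71, 5.23 and 6.59 against 4.39, 6.02 and 6.15, a log2 difference of 0.32 (SE 0.59) that turned to -0.049 without EGFP-positive replicate 3.

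**Figure D2:**
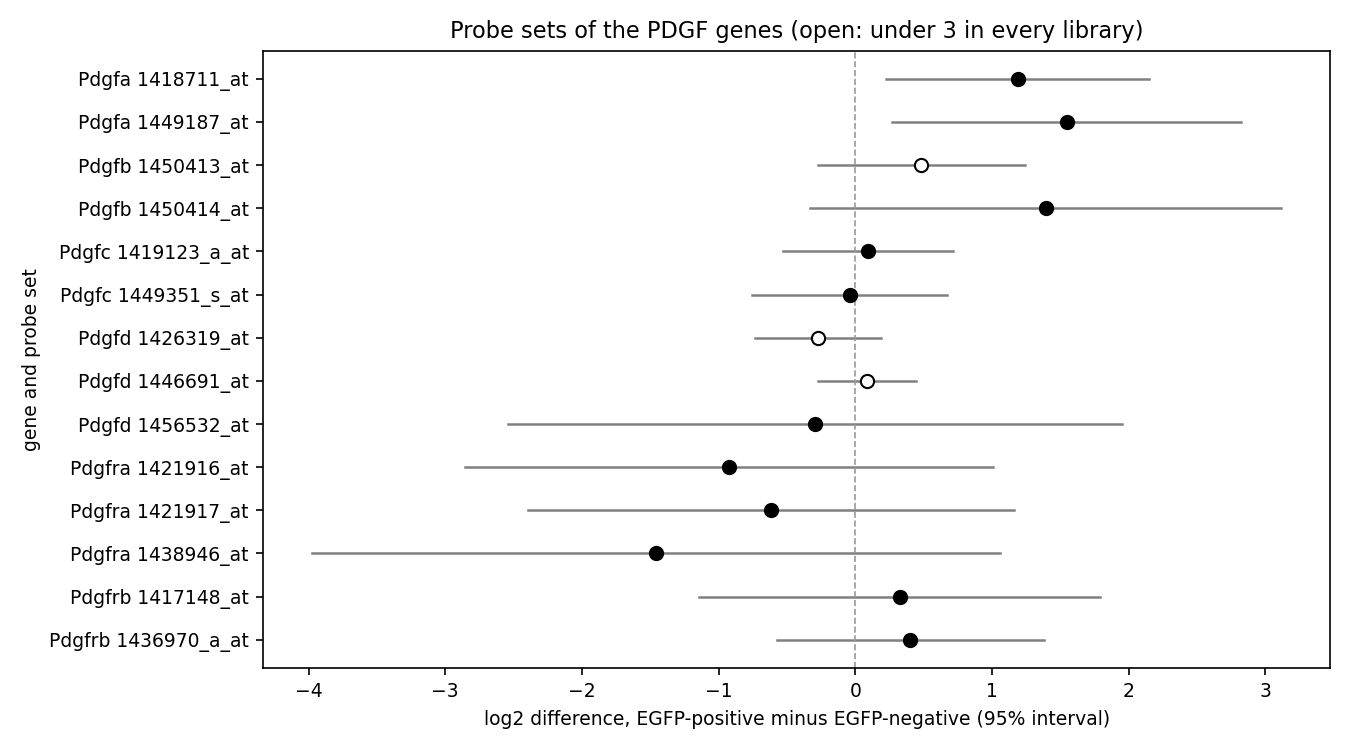
Log2 difference, EGFP-positive minus EGFP-negative (x axis), for each of the 14 probe sets of the 6 genes (y axis), with its 95% interval from limma over all probe sets. Open points mark probe sets under 3 in every library. The intervals of both Pdgfa probe sets, centred on 1.19 and 1.55, leave out 0, and the intervals of the other 12 include it.

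Read as a family, the PDGF genes gave 0 of 6 past the threshold, beside 0% of all genes (0 of 18193). At an unadjusted limma p under 0.05 there was 1 of 6, Pdgfa, beside 4.91% of all genes (893). This count fell to 0 of 6 without EGFP-positive replicate 3, beside 700 of 18193 genes. It was also 0 without EGFP-negative replicate 2, beside 616 genes. With the replicate block there were 2 of 6, Pdgfa and Pdgfb, beside 7.39% (1345), and 0 genes passed after adjustment. The median log2 difference of the 6 was 0.25, beside -0.017 over all genes. Centring on ribosomal protein genes moved the median of all genes to 0.33, and the values of Pdgfa, Pdgfb, Pdgfc, Pdgfra and Pdgfrb were then 1.90, 1.74, 0.44, -0.27 and 0.75. Pdgfa, Pdgfb and Pdgfrb shared their highest and their lowest library. Pdgfra had the same lowest library, EGFP-negative replicate 1, but another highest one, and Pdgfd differed in both.

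The mean of the glia markers had the same highest and lowest library as Pdgfa and Pdgfb. From EGFP-negative replicate 2 to EGFP-negative replicate 3 the glia mean fell, whereas Pdgfa and Pdgfb rose. The mean of 10 measured enteric glia markers of 12 listed was 6.82, 6.45 and 8.68 in the EGFP-positive-labelled libraries and 4.48, 6.12 and 5.65 in the others, and 5 of the 10 had groups that did not overlap, all higher in the EGFP-positive group, beside 3.07% of all genes. Kcna1, a potassium channel gene on the glia list, read 8.98, 8.49 and 10.48 against 4.21, 7.58 and 7.01. Fabp7, a fatty acid binding protein, read 5.94, 5.53 and 7.34 against 4.79, 5.63 and 4.90. None of the 10 was near the blank level throughout. Macrophage markers went the other way, with means of 14 genes of 6.06, 3.35 and 2.22 against 7.63, 8.08 and 6.25. The part of glia, neurons or macrophages in the Pdgfa and Pdgfb values was not tested.

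Endothelium and platelets also make PDGF-B. The mean of 12 endothelial markers was lowest, 4.56, in EGFP-positive replicate 3, the library with the highest Pdgfb, and ranged from 5.65 to 6.71 in the other 5. Of 7 platelet markers 3 were under 2 in every library, Itga2b, a platelet integrin, lay between 1.91 and 2.55, and the list mean was 2.24 to 2.75 against 2.70 to 3.20. Pf4, a platelet chemokine, read 7.42, 3.97 and 2.74 against 9.56, 8.44 and 6.88, close in order to the macrophage markers. Ppbp, another platelet chemokine, read 2.59, 3.16 and 4.02 against 3.25, 2.39 and 3.25, highest in the library where Pdgfb was highest. The platelet list mean, Itga2b and Pf4 were each lowest in that same library. The part of these cells in the Pdgfb values was not tested.

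Pdgfra had the same 2 highest libraries as the fibroblast-like marker list, and Pdgfrb followed the mural cell list through all 6 libraries. The 15 fibroblast-like markers averaged 7.61, 7.91 and 7.17 against 7.53, 8.40 and 8.18, with EGFP-negative replicates 2 and 3 highest for Pdgfra and for the list. Foxl1 and Kcnn3, which mark subsets of gut PDGFRA-positive cells, were near the blank level, with highest values of 1.57 and 2.10. P2ry1, the purine receptor of those cells in muscle, stood at 2.08, 1.55 and 1.33 against 1.82, 4.91 and 4.07. The fibroblast matrix gene Dpt had the list's lowest difference among genes with a mean of at least 4, at -1.05 (SE 0.42), and Col1a2, a collagen chain, the highest, at 0.20 (SE 0.18). The 12 mural markers averaged 4.68, 4.47 and 5.83 against 3.82, 4.65 and 5.26, the same order of the 6 libraries as Pdgfrb. Pdgfa and Pdgfb also shared the highest and the lowest library of this list. Of the 12 markers 10 had a log2 difference above 0, all but Anpep and Angpt1. Ndufa4l2 and Cox4i2 were under 2 in every library. Notch3, a mural cell receptor, read 5.46, 5.51 and 7.37 against 4.19, 5.09 and 6.30. Rgs5, a pericyte regulator of G-protein signalling that smooth muscle also makes, read 10.36, 10.75 and 12.29 against 10.23, 10.96 and 11.97. Abcc9, a potassium channel subunit of mural cells, had a log2 difference of 0.07 (SE 0.91). The part of these cell types in the receptor values was not tested.

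Smooth muscle markers, 12 genes, averaged 7.55, 7.40 and 8.95 against 7.79, 7.56 and 9.24, highest in both replicate 3 libraries, as Pdgfc and Pdgfrb were. Acta2, smooth muscle actin, read 11.75, 11.61 and 12.81 against 11.87, 11.49 and 12.41. The list of interstitial cells of Cajal, like Pdgfra, was highest in EGFP-negative replicates 2 and 3. The means of the other lists spanned 5.34 to 6.58 in the EGFP-positive and 5.56 to 6.98 in the EGFP-negative group for interstitial cells of Cajal, 7.68 to 9.88 and 7.92 to 9.58 for mesothelium, 4.06 to 7.58 and 4.95 to 6.67 for epithelium, and 1.42 to 2.25 and 2.64 to 4.84 for lymphocytes and mast cells.

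**Figure D3:**
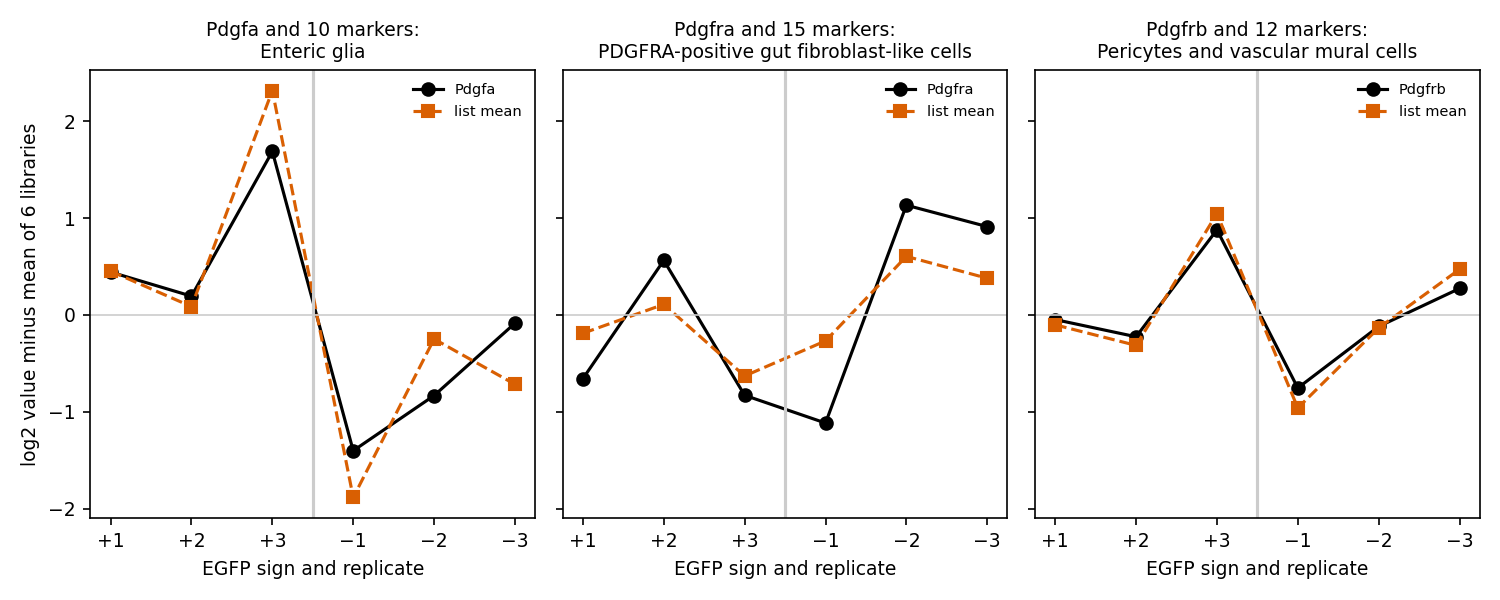
Log2 values of Pdgfa, Pdgfra and Pdgfrb (black) and the mean of a marker list (orange) in each library (x axis, EGFP sign and replicate number), each minus its own mean over the 6 libraries (y axis). Pdgfrb and the mean of 12 mural markers rank the libraries alike, from EGFP-negative replicate 1 to EGFP-positive replicate 3. For Pdgfra and its list of 15 the highest libraries are EGFP-negative replicates 2 and 3.

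Genes that process or hold PDGF ligands showed no shared direction. Of 15 listed 13 were measured, 0 passed, 1 had groups that did not overlap, beside 9.11% of all genes, and the median log2 difference was 0.15. The median turned to -0.24 without EGFP-negative replicate 1, -0.058 without EGFP-positive replicate 1 and -0.18 without both, and was 0.00032 after a second quantile normalisation. The gene without overlap was Sparc, a matrix protein that binds PDGF-B, which read 12.20, 12.00 and 12.39 against 11.87, 11.64 and 11.97, a log2 difference of 0.37 (SE 0.16; limma adjusted p = 1.00). Pcsk6, a furin-like protease, read 6.82, 6.98 and 5.32 against 5.93, 6.73 and 4.83, and Pcsk5, another, read 6.85, 7.50 and 5.57 against 6.29, 8.05 and 7.50. Plat, which activates PDGF-C, read 7.80, 8.65 and 8.87 against 7.78, 8.36 and 8.50. Plau, which activates PDGF-D, was above 3 in 1 library, EGFP-positive replicate 2, at 5.40. Sparc and Plat were named after their values were seen, as was Plau.

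Of 29 measured genes of receptor adaptors and signalling enzymes 0 passed, and the list median was 0.037. Groups did not overlap in 1 of the 29, beside 9.11% of all genes. That gene was Gab1, a docking protein that links receptors to SHP2 and PI3-kinase. Gab1 read 7.64, 7.72 and 8.85 against 7.06, 7.12 and 7.08. Its log2 difference was 0.99 (SE 0.34, limma adjusted p = 0.986). Nck1, an SH2 and SH3 adaptor, had the lowest difference, at -0.57 (SE 0.32). Among enzymes that bind PDGF receptors, Plcg1, a phospholipase, differed by -0.07 (SE 0.31), Pik3r1, the regulatory subunit of PI3-kinase, by 0.26 (SE 0.31), and Ptpn11, the phosphatase SHP2, by 0.10 (SE 0.20). The kinases Src and Fyn differed by 0.32 (SE 0.27) and 0.30 (SE 0.30), and Rasa1, a Ras GTPase activator, by 0.26 (SE 0.17). These 6 genes were likewise named after their values were seen.

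Negative regulators included 15 measured genes with a median of 0.21 and 0 past the threshold. Spry4, a Sprouty inhibitor of receptor signalling, was the 1 with groups that did not overlap, beside 9.11% of all genes. It read 4.26, 4.69 and 5.14 against 5.43, 5.33 and 5.82, a log2 difference of -0.83 (SE 0.27, limma adjusted p = 0.986). Dusp6, an ERK phosphatase, had the highest difference, at 0.62 (SE 0.47), with 7.68, 8.36 and 9.25 against 7.29, 8.29 and 7.86. The 18 early-response genes, which serum and PDGF induce in cultured fibroblasts, had a median of -0.065, and 0 passed. Jun, an AP-1 subunit, was highest, at 0.52 (SE 0.40), and Ccl7, a monocyte chemokine, lowest, at -0.66 (SE 0.30). Ccnd1, cyclin D1, was the 1 gene of the 18 whose groups did not overlap, beside 9.11% of all genes. It read 7.99, 8.13 and 8.05 against 7.74, 7.40 and 7.80.

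The related VEGF family, whose ligands share the cystine-knot fold of PDGF, had 8 genes measured, with a median of -0.16. Groups did not overlap in 0 of the 8, beside 9.11% of all genes. Kdr, VEGF receptor 2, differed by -0.10 (SE 0.67) and Flt4, VEGF receptor 3, by -0.45 (SE 1.29). The receptors of the PDGFR class and their ligands had 6 genes measured and a median of -0.66. Groups did not overlap in 1 of the 6, beside the same 9.11%. That gene was Flt3, a receptor of blood cell precursors, which lay between 1.42 and 2.42 in the 6 libraries, close to the blank. Csf1r, the macrophage receptor, read 8.98, 7.24 and 5.38 against 9.59, 9.66 and 8.55, and Csf1, its ligand, 8.01, 8.32 and 7.48 against 7.62, 7.80 and 7.57. The signs of 2 of these medians were not stable. The VEGF median turned to 0.19 with centring on ribosomal protein genes, to 0.11 with array weights and to 0.21 without EGFP-positive replicate 3. The early-response median turned to 0.28 with that centring, to 0.078 without EGFP-negative replicate 3, and to 0.0044 and 0.0042 without EGFP-positive replicates 1 and 2.

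**Figure D4:**
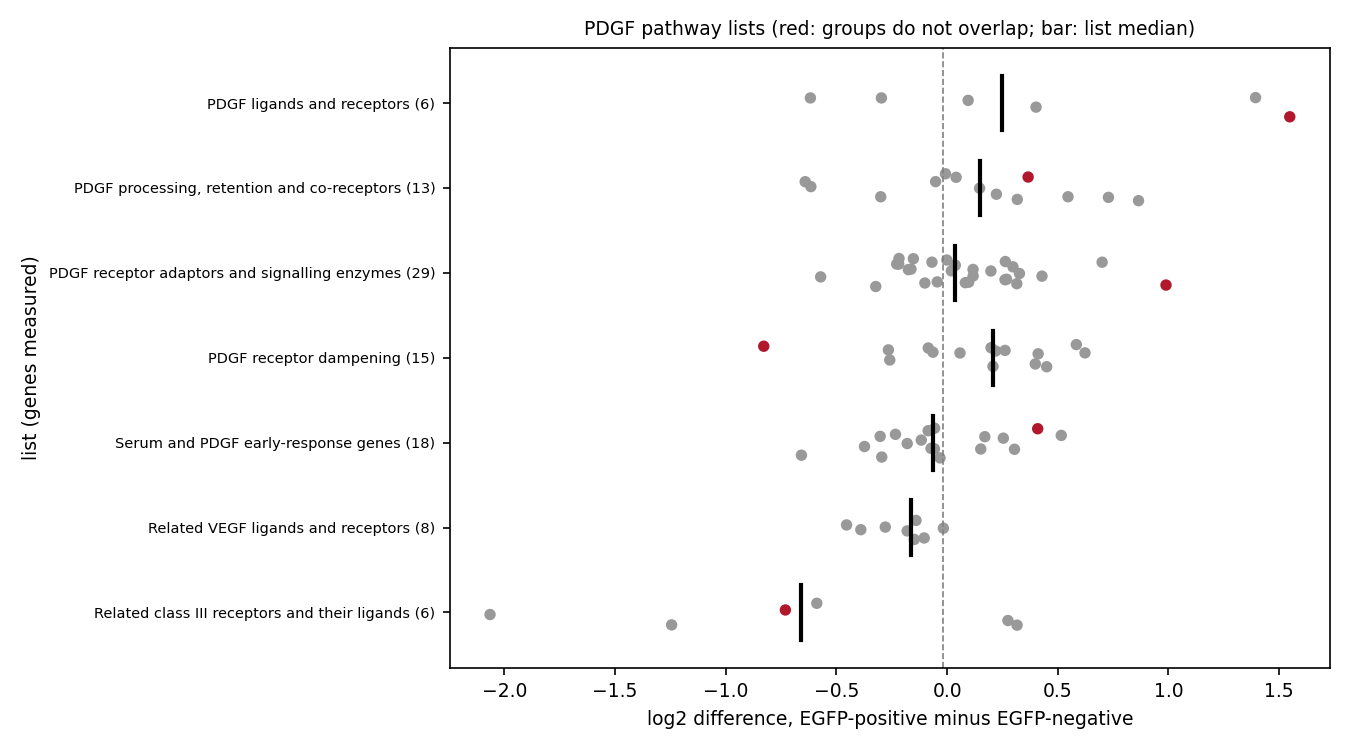
Log2 difference, EGFP-positive minus EGFP-negative (x axis), of each measured gene (points) in the PDGF family and 6 related lists (y axis, genes measured in brackets). Red points are genes whose groups do not overlap, black bars are list medians and the dashed line is the median of all genes, -0.017. The list medians run from -0.66 to 0.25, and each list holds at most 1 red point.

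Of the genes beside the receptors, Kit had the same extreme libraries as Pdgfra. Kit, the receptor of interstitial cells of Cajal, and Kdr follow Pdgfra in the RefSeq gene order. Kit read 5.46, 5.10 and 3.40 against 3.16, 7.42 and 7.11, so that, like Pdgfra, it was lowest in EGFP-negative replicate 1 and highest in EGFP-negative replicates 2 and 3. Kdr was lowest, 4.90, in EGFP-positive replicate 3. Csf1r follows Pdgfrb in that order, and its values above were lowest in EGFP-positive replicate 3, where Pdgfrb was highest.

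Genes most like each PDGF gene were sought over the 6 libraries by Pearson's r, among genes with a mean of at least 6 and a range of at least 1; all genes were read in the same 6 libraries, whose marker levels and number of bright probe sets differed, and r is a description with no test. For Pdgfra the nearest were Dact1, a Wnt regulator (r = 0.994), Lum, a matrix proteoglycan (0.986), and Mfap5, a microfibril protein (0.982), of 1917 candidates. For Pdgfrb they were Ndn (r = 0.991), Cd59a (0.990) and Parm1 (0.989). For Pdgfa they were Fbxw7 (r = 0.987), Emc1 (0.985) and Enpp5 (0.985), and for Pdgfb Tsc22d4 (r = 0.993), Mmp17 (0.986) and Grb14 (0.985). Acta2, smooth muscle actin (r = 0.960), Diablo (0.955) and Arhgef25 (0.951) were nearest to Pdgfc. For Pdgfd they were Rsrc2 (r = 0.993), Upf2 (0.993) and Mterf3 (0.984), each low in both replicate 1 libraries, as Pdgfd was: Upf2 read 5.73, 6.82 and 6.91 against 5.90, 6.85 and 6.96.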

How the data were processed

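The authors deposited 1 log2 value for each probe set of each array, RMA output per the submitters' processing notes (version and settings: not given in the sources used here). Medians of 1.91 to 1.99 and unequal upper quartiles (4.08 to 4.86) leave the method uncertain, so dim values carry little weight. No normalisation was added. Precision is limited by the number of arrays. The platform annotation gave 1 symbol for 34945 of 45101 probe sets; several symbols (932), none (9160) and 64 controls were left out, as were listed genes not analysed here. For each of 18193 genes the probe set of highest mean was used. The comparison used limma (version 3.58.1, R 4.3.3) with lmFit and eBayes, two-sided, and Benjamini-Hochberg over all genes. The code was run on simulated independent values with the same SD for every gene, smaller than that of Pdgfa here. That run checks the code and does not measure power in these libraries. A second fit covered all 45037 probe sets that are no controls. P-values measure the spread of these pooled libraries.

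The labels number replicates 1 to 3 in both groups. Deviations from the group means correlated between same-numbered libraries (0.36, 0.32 and 0.42), so the numbers were taken as pairs from the data; no label states a shared batch. Members and lists were chosen with earlier results of these data known. The naming rule took all members, Mapt, from each list the genes with the highest and lowest difference (mean at least 4), and the 3 genes most like each member; other genes were named after their values were seen.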

Additional observations from a re-analysis of the deposited data

How the results depend on the processing

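None of the 6 PDGF genes passed in limma under any of 16 alternatives, whose smallest adjusted p for a member was 0.432. Pdgfa, Pdgfb and Pdgfrb read higher and Pdgfra lower under all 16. Without single libraries the ranges were 1.09 to 1.89 for Pdgfa, 0.74 to 1.85 for Pdgfb, -0.16 to 0.23 for Pdgfc (0.26 without replicate 1 of both groups), -1.02 to 0.48 for Pdgfd, -1.33 to -0.21 for Pdgfra and 0.06 to 0.64 for Pdgfrb. Pdgfd turned to 0.053 with centring on ribosomal protein genes, and without EGFP-positive replicate 1 (0.48), EGFP-negative replicate 2 (0.056) or 3 (0.073); Pdgfc turned without EGFP-positive replicate 3 (-0.16) or EGFP-negative replicate 2 (-0.016). That centring also turned Pdgfd probe set 1426319_at (0.075) and Pdgfc probe set 1449351_s_at (0.31). Array weights turned Pdgfrb probe set 1417148_at (-0.23); leaving out single libraries gave -0.24 to 0.64 for it, -0.35 to 0.11 for 1449351_s_at and -0.030 to 0.16 for 1446691_at. Leaving out replicate 1 of both groups, chosen after seeing the data, gave -0.17 for 1417148_at and 0.0077 for 1449351_s_at. Over all genes 0 to 2 passed, the 2 without EGFP-positive replicate 1. The replicate block changed no call. With it Pdgfa gave a limma unadjusted p = 0.00244, its smallest under the 16 alternatives. The Pdgfa limma unadjusted p rose to 0.0511 without EGFP-positive replicate 3. It was 0.0796 without EGFP-negative replicate 1, 0.0694 without EGFP-negative replicate 2 and 0.109 without replicate 1 of both groups. Arrays give no read depth, and probe sets of members under 3 in every library have no readable difference. The causes were not tested.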
